A study of Rattus norvegicus with 16 samples.

Results

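The innate immune receptors of the Toll-like and NOD families, with the proteins that help them bind ligand and signal, were followed in the normal distal colon of 16 rats. The set comprised the receptors Tlr2, Tlr3, Tlr4, Tlr5, Tlr9, Nod1 and Nod2, the accessory proteins Cd14 and Ly96, and the adaptor Myd88. A microarray probe was assigned to a gene when its RefSeq transcript matched that gene in a rat gene table, and control spots were left out. Of the 10 genes, 9 had a matched probe (12 probes in all) among 15159 genes with a matched probe on the array. No probe matched Nod2, which was not analysed here.

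The series compared wildtype (WT) rats with rats heterozygous for Pirc, an allele of Apc that predisposes to intestinal tumors, with and without dextran sodium sulfate (DSS), an agent that injures the colon lining and inflames it. All rats were (ACIxF344)F1 males aged 97 days, kept with free access to food and water. The groups were untreated WT rats (rats 13, 17, 21 and 25), DSS-treated WT rats (14, 18, 22 and 26), untreated Pirc/+ rats (11, 15, 19 and 23) and DSS-treated Pirc/+ rats (12, 16, 20 and 24). Treated rats drank 4% DSS from day 40 to day 47 and again from day 54 to day 61, so 36 days without DSS preceded sampling. The labels give the strain as (ACIxF344)F1-Pirc for both genotypes. The tissue was normal distal colon, which holds many cell types, and Pirc rats carry the allele in every cell. In such bulk tissue, fewer cells of a type and less RNA per cell cannot be told apart.

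Toll-like receptors recognise conserved microbial molecules. Tlr2 binds bacterial lipopeptides as a partner of Tlr1 or Tlr6, Tlr4 senses lipopolysaccharide with the help of Cd14 and Ly96 (also called MD-2), and Tlr5 senses flagellin, whereas Tlr3 and Tlr9 detect double-stranded RNA and unmethylated CpG DNA inside endosomes. Most of them, Tlr3 being the exception, signal through Myd88, which recruits IRAK kinases and leads to activation of NF-kappaB. Nod1 and Nod2 are cytoplasmic sensors of peptidoglycan fragments that act through the kinase Ripk2. In the colon these receptors are known for their role in keeping the lining in balance with the resident bacteria.

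The promoter sequences available from RefSeq (GRCr8 assembly) covered 8 of the 10 genes and were searched on both strands for the NF-kappaB consensus, since NF-kappaB is the end point of this pathway. Each window ran from 250 bases before to 50 bases after a transcription start. Matches were present in 2 of the 8 windows, those of Tlr2 and Nod1, and in 7.51% of all 33469 windows of the same length. The stretches of 30 bases that hold these matches are shown because Tlr2 is the gene whose level changed most. They are written 5′ to 3′ on the strand of the gene, with the match in capitals.
Tlr2, chr2:171504743-171504772, minus strand, match beginning 206 bases before the start: aggcccttgGGGGAATTCCCatacggagcc
Tlr2, chr2:171504580-171504609, minus strand, match beginning 42 bases before the start: ccctggcctgGGGACGTCCCcttcccgcac
Nod1, chr4:85441802-85441831, minus strand, match beginning 147 bases before the start: tgcagtgtgcGGAGGCTCCCgccagggaaa
The upstream run in Tlr2 is 11 bases long because 2 matches overlap there. These matches describe the letters alone, and nothing about binding was measured.

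Levels are given as the log2 of the processed signal minus the log2 of the 75th percentile of the signal on the same array, so a level of 0 is the 75th percentile. A difference of 1 between groups is a factor of 2. Levels of different probes depend on the probe and were not compared with each other. Differences were tested with limma over all 30367 probes, and a gene passed at a Benjamini-Hochberg adjusted p of 0.05 or less, whatever the size of its change. The 7 comparisons were the DSS difference over both genotypes and in each genotype, the Pirc difference over both treatments and in each treatment, and the difference between the DSS effects. These share groups of rats and are not independent of each other. Every group sat in a single column of array positions, and the effect of the column and that of the group cannot be told apart. Each of the 11 markers of colon epithelium with a probe was detected above background on all 16 arrays. By the smallest difference over all probes, 13 of the 16 arrays lay nearest to an array of their own group. The exceptions were DSS-treated WT rat 26 and untreated Pirc rat 23, which both lay nearest to untreated WT rat 25, and DSS-treated Pirc rat 16, which lay nearest to DSS-treated WT rat 18.

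Of the 9 genes with a probe, 8 had a signal well above background on each of the 16 arrays, whereas Tlr9 had it on 0. In DSS-treated rats of both genotypes, 2 of the 9 genes were higher (Tlr2 and Myd88) and 0 lower, where 10.2% of all probes were higher and 6.99% lower. The median log2 difference of the 9 genes was -0.01, and that of all probes was 0.06. Among Pirc rats, DSS treatment gave 2 higher (Tlr2 and Myd88), against 8.14% of all probes higher and 6.51% lower. Among WT rats it gave 1 higher (Tlr2), against 2.94% of all probes higher and 0.899% lower. In Pirc rats compared with WT rats over both treatments, 2 of the 9 genes were higher (Tlr2 and Ly96), where 9.26% of all probes were higher and 8.27% lower. Among DSS-treated rats, 1 was higher in Pirc rats (Tlr2) and 1 lower (Tlr3), against 9.47% of all probes higher and 8.76% lower. Among untreated rats 0 passed by limma, as was the case for all probes (0% higher and 0% lower, with 3103 probes at an unadjusted p under 0.05). For the difference between the DSS effects, 0 of the 9 passed by limma, and 0.0428% of all probes were higher and 0% lower (3234 probes at an unadjusted p under 0.05). Under quantile normalization, higher probes made up 41.7% of those that passed for DSS over both genotypes, compared with 59.4% under the percentile scaling, and the median of all probes moved from 0.06 to -0.06. The corresponding shares were 39.9% and 55.6% for DSS in Pirc rats and 58.2% and 76.6% for DSS in WT rats. Of the members, only Tlr2 changed by a factor of 2 or more among those that passed.

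**Figure D1:**
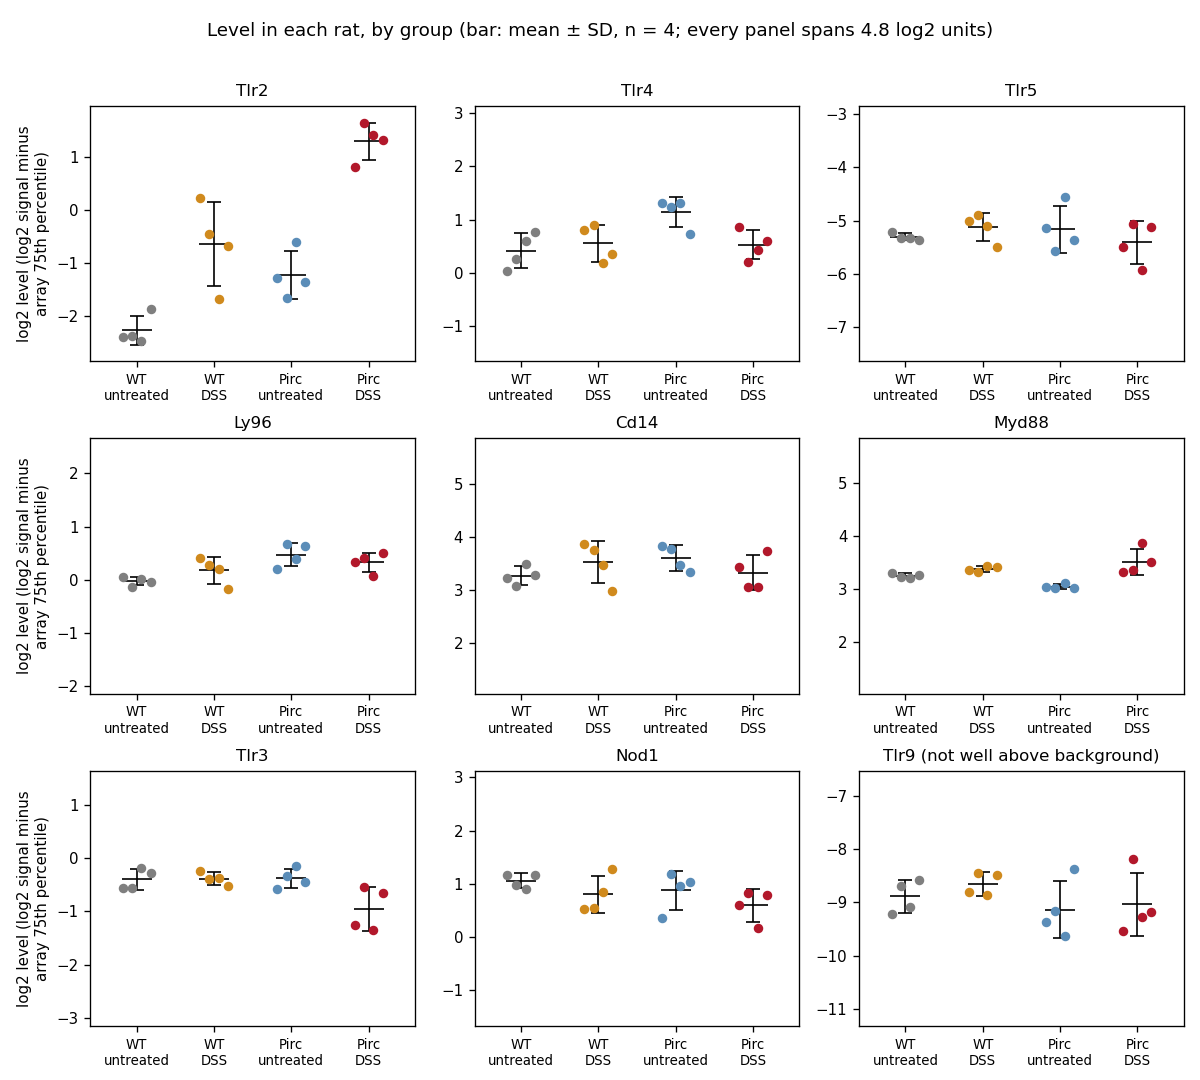
Level of each measured gene in each rat (points) by group, with the group mean and SD (bars, n = 4); the vertical axis is the log2 level relative to the array's 75th percentile, and each panel spans the same number of log2 units. Tlr2 runs from -2.46 in an untreated WT rat to 1.64 in a DSS-treated Pirc rat, while the other genes stay within a much narrower band, and Tlr9 was not well above background on any array.

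Tlr2 was higher after DSS in both genotypes and higher in Pirc rats than in WT rats. Its level in untreated WT rats 13, 17, 21 and 25 was -2.38, -2.37, -2.46 and -1.87. Untreated Pirc rats 11, 15, 19 and 23 had levels of -1.28, -1.67, -0.60 and -1.35. All 4 lay above all 4 untreated WT rats. The DSS-treated WT rats 14, 18, 22 and 26 had levels of 0.23, -0.46, -1.68 and -0.69. DSS-treated Pirc rats 12, 16, 20 and 24 had the highest levels, 0.80, 1.64, 1.40 and 1.31. No treated rat overlapped with the untreated rats of its genotype, and no Pirc rat overlapped with the WT rats of its treatment, but rat 22 of the treated WT group lay just above rat 25 of the untreated WT group.

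Over both genotypes, DSS-treated rats had 4.19-fold more Tlr2 signal than untreated rats (log2 difference 2.07, SE 0.24, adjusted p = 5.2e-05). In Pirc rats the difference was 5.71-fold (log2 2.51, SE 0.33, adjusted p = 0.000277). In WT rats it was 3.07-fold (log2 1.62, SE 0.33, adjusted p = 0.0158). The difference between the DSS effects of the genotypes was 0.89 on the log2 scale, with a 95% confidence interval from -0.12 to 1.91, and did not pass (adjusted p = 0.529). Of these calls, the one in WT rats was lost when the fit held only the compared groups (adjusted p = 0.0684) and when rat 14 (log2 1.33, adjusted p = 0.0556), rat 17 (1.59, adjusted p = 0.0517) or rat 18 (1.55, adjusted p = 0.0554) was left out. Without rat 26 the WT difference was 1.63 (adjusted p = 0.0215).

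Pirc rats had 2.81-fold more Tlr2 signal than WT rats over both treatments (log2 difference 1.49, SE 0.24, adjusted p = 0.00178). Among DSS-treated rats the difference was 3.83-fold (log2 1.94, SE 0.33, adjusted p = 0.00245). Among untreated rats it was 1.04 on the log2 scale, with a 95% confidence interval from 0.33 to 1.76, which did not pass the adjustment over all probes (adjusted p = 0.311) although the groups did not overlap. Ordered by group mean, the levels ran from untreated WT (-2.27 ± 0.27, SD, n = 4) through untreated Pirc (-1.23 ± 0.45, SD, n = 4) and DSS-treated WT (-0.65 ± 0.79, SD, n = 4) to DSS-treated Pirc rats (1.29 ± 0.35, SD, n = 4). The middle groups of this order overlapped. Each of the 2 slides held 2 rats of every group, and the DSS difference of Tlr2 was 2.69 and 2.34 within the slides in Pirc rats and 2.26 and 0.98 in WT rats. Within the slides, the Pirc difference was 0.90 and 1.18 among untreated rats and 1.33 and 2.54 among DSS-treated rats.

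**Figure D2:**
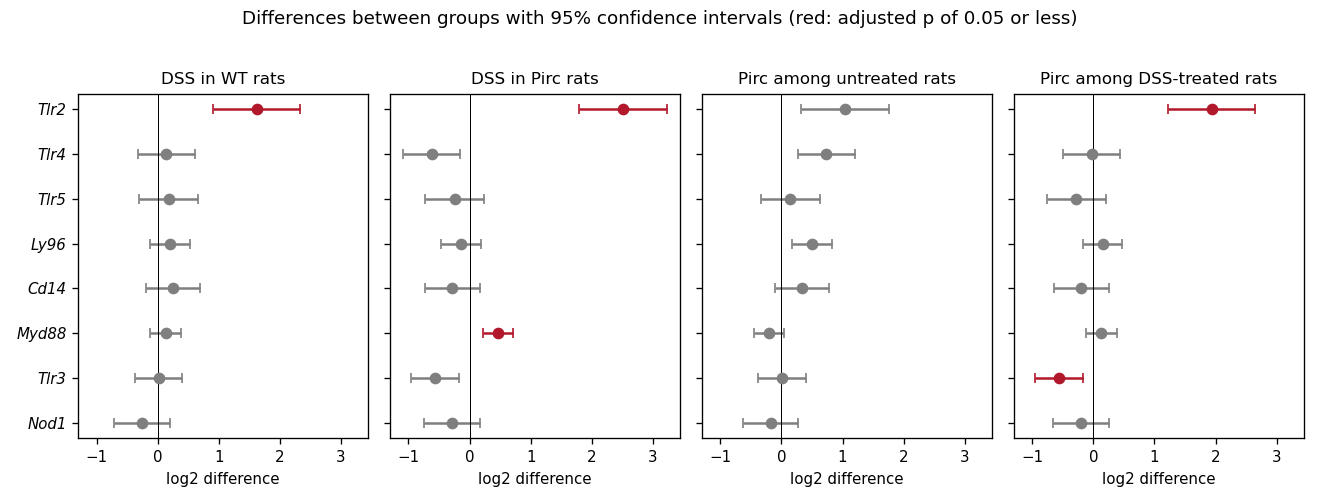
Log2 differences between groups (points) with 95% confidence intervals for the 8 genes well above background, in the comparisons of DSS with no treatment in each genotype and of Pirc with WT rats in each treatment; red marks an adjusted p of 0.05 or less. Tlr2 passes in 3 of the 4 panels, Myd88 passes for DSS in Pirc rats and Tlr3 for Pirc among DSS-treated rats, and the other points do not pass.

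Markers of some other cells of the colon wall were also higher after DSS. Of 15 markers of monocytes and macrophages, 10 were higher after DSS over both genotypes and 0 lower, with a median log2 difference of 1.10. Over all probes, 10.2% were higher and 6.99% lower in this comparison. The mean level of the macrophage markers, centred on the 16 rats, ranged from -0.88 to -0.43 in untreated WT rats and from -0.63 to -0.21 in untreated Pirc rats. It ranged from -0.08 to 1.06 in DSS-treated WT rats and from 0.66 to 1.16 in DSS-treated Pirc rats. DSS-treated WT rat 14 had both the highest Tlr2 level (0.23) and the highest macrophage level (1.06) of its group. The same held for DSS-treated Pirc rat 16 (1.64 and 1.16). Untreated WT rat 25 had the highest Tlr2 level (-1.87) but the lowest macrophage level (-0.88) of its group. Among untreated Pirc rats, Tlr2 was highest in rat 19 (-0.60) and the macrophage list in rat 23 (-0.21). Of 12 neutrophil markers 4 were higher and 0 lower, and their mean ranged from -0.64 to -0.35 in untreated WT, from -0.57 to -0.18 in untreated Pirc, from -0.31 to 0.42 in DSS-treated WT and from 0.11 to 1.22 in DSS-treated Pirc rats. Of these, 5 (S100a8, S100a9, Ncf1, Fpr1 and Camp) were well above background on all 16 arrays, and Elane on 0. Cxcr2 was so on 14 arrays, Csf3r and Prtn3 on 11 each, Cxcr1 on 10, and Ltf and Mmp8 on 3 each. Fibroblast markers were higher for 10 of 10 genes (median 2.0), and their mean ranged from -1.26 to -0.51 in untreated rats of both genotypes, from -0.24 to 1.99 in DSS-treated WT rats and from 0.86 to 2.03 in DSS-treated Pirc rats.

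Markers of stratified epithelium, a lining found in skin and at the anus and not in the colon, were higher after DSS for 7 of 8 genes with a median of 4.56. Their mean ranged from 2.73 to 4.62 in DSS-treated Pirc rats and from -2.53 to 4.27 in DSS-treated WT rats. Rat 22, with the lowest Tlr2 level of the treated WT rats, had the highest stratified epithelial level of that group (4.27), and rat 26 had the lowest (-2.53). Of this list Ivl was well above background on 0 arrays. B and plasma cell markers were higher for 4 of 7 genes, T and natural killer cell markers for 3 of 12 (Klrd1 on 0 arrays), endothelial markers for 3 of 6 (Tek on 0 arrays) and smooth muscle markers for 1 of 8, with 1 lower (Lmod1 on 0 arrays). Of the 11 colon epithelial markers, 1 was lower after DSS. In Pirc rats over both treatments, 3 of the 15 macrophage and 2 of the 12 neutrophil markers were higher, 4 of the 11 colon epithelial markers were lower, and 0 of the 8 stratified epithelial markers passed by limma. Over all probes, 9.26% were higher and 8.27% lower. Among DSS-treated rats, 2 of the 15 macrophage, 3 of the 12 neutrophil and 2 of the 8 stratified epithelial markers (median 3.16) were higher in Pirc rats, and 5 of the 11 colon epithelial markers (median -0.45) were lower. There, 9.47% of all probes were higher and 8.76% lower. The part of these cells in the Tlr2 differences was not tested.

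**Figure D3:**
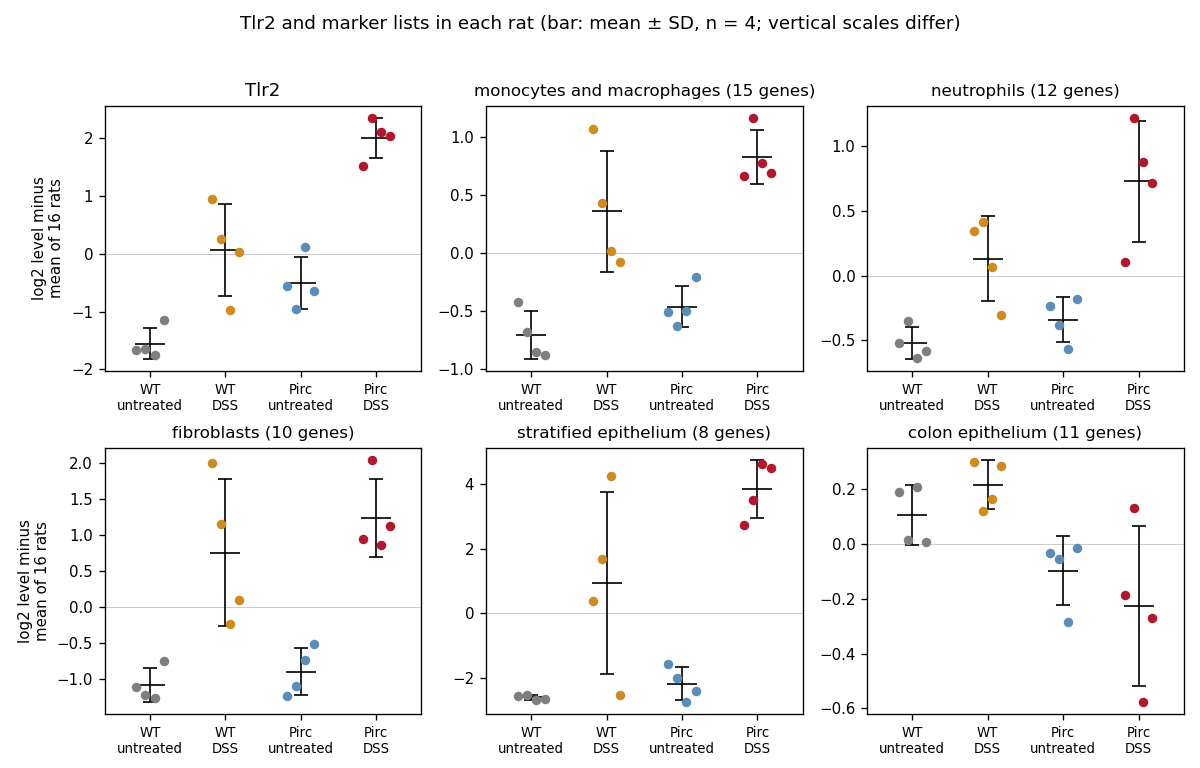
Tlr2 and the mean of 5 marker lists in each rat (points) by group, as log2 level minus the mean of the 16 rats, with group mean and SD (bars, n = 4); vertical scales differ between panels. Tlr2 and the macrophage, neutrophil, fibroblast and stratified epithelial lists are highest on average in DSS-treated Pirc rats, while the colon epithelial list varies by less than 1 log2 unit.

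The genes whose pattern over the 16 rats was most like that of Tlr2, by the root mean square difference of centred log2 levels among 10363 other genes well above background on all arrays, were Cd44 (0.374), Basp1 (0.404) and Mfge8 (0.408), where Tlr2 itself had an SD of 1.41 over the rats. Cd44 encodes a hyaluronan receptor on the cell surface, and Mfge8 a secreted bridge between dying cells and phagocytes. Cd44 had a mean level of -2.89 in untreated WT, -2.29 in untreated Pirc, -1.12 in DSS-treated WT and 0.70 in DSS-treated Pirc rats. This is a description of likeness, and these genes were selected for it.

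Tlr4, the receptor for lipopolysaccharide, passed in none of the 7 comparisons. Its level was 0.04, 0.26, 0.60 and 0.76 in untreated WT rats 13, 17, 21 and 25. In untreated Pirc rats 11, 15, 19 and 23 it was 1.31, 1.24, 1.31 and 0.73. DSS-treated WT rats 14, 18, 22 and 26 had levels of 0.80, 0.89, 0.17 and 0.36. DSS-treated Pirc rats 12, 16, 20 and 24 had levels of 0.86, 0.21, 0.43 and 0.60. Untreated Pirc rats 11, 15 and 19 thus stood above every other rat, and rat 23 lay among the others. The DSS difference was -0.62 in Pirc rats (SE 0.22, adjusted p = 0.069) and 0.14 in WT rats (adjusted p = 0.815), and neither passed. Without rat 23 the difference in Pirc rats was -0.76 and passed (adjusted p = 0.0298), as it did when dim probes were filtered out (adjusted p = 0.0442). The difference between the DSS effects was -0.76 (95% confidence interval from -1.42 to -0.11, adjusted p = 0.395). Among untreated rats Tlr4 was 0.73 higher in Pirc than in WT rats on the log2 scale (95% confidence interval from 0.27 to 1.20), with an adjusted p of 0.272.

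Ly96, the small protein that holds lipopolysaccharide for Tlr4, was slightly higher in Pirc rats. Its levels ranged from -0.13 to 0.05 in untreated WT rats, from -0.18 to 0.42 in DSS-treated WT rats, from 0.21 to 0.68 in untreated Pirc rats and from 0.08 to 0.50 in DSS-treated Pirc rats. The untreated groups did not overlap, and the treated groups did. The Pirc difference over both treatments was 0.33 (SE 0.11, 1.25-fold, adjusted p = 0.0483), and a second Ly96 probe gave 0.30 (SE 0.10, adjusted p = 0.0493). The first value no longer passed with slide as a block (adjusted p = 0.0504), array row as a block (adjusted p = 0.0551) or both as a block (adjusted p = 0.0761), and it passed in 3 of the 16 fits that each left out 1 rat, those without rat 11, 14 or 20. Those fits gave differences from 0.27 to 0.37, the smallest without rat 26. Among untreated rats the difference was 0.50 (95% confidence interval from 0.18 to 0.82, adjusted p = 0.282). After DSS, Ly96 differed by 0.03 over both genotypes (95% confidence interval from -0.20 to 0.26, adjusted p = 0.899).

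Cd14, which delivers lipopolysaccharide to the receptor and is abundant on monocytes, passed in none of the 7 comparisons. Its levels ranged from 3.07 to 3.50 in untreated WT, from 2.99 to 3.87 in DSS-treated WT, from 3.34 to 3.84 in untreated Pirc and from 3.06 to 3.74 in DSS-treated Pirc rats, so that all groups overlapped. The DSS difference over both genotypes was -0.01, and its 95% confidence interval from -0.33 to 0.30 does not reach a factor of 2 in either direction. The flagellin receptor Tlr5 passed in none of them either. Its levels lay between -5.94 and -4.56 in all rats, with a DSS difference over both genotypes of -0.03 (95% confidence interval from -0.37 to 0.31) and a Pirc difference of -0.07 (from -0.41 to 0.28).

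Myd88, the adaptor downstream of most of these receptors, was a little higher after DSS. Levels in untreated Pirc rats 11, 15, 19 and 23 were 3.04, 3.02, 3.11 and 3.03. In DSS-treated Pirc rats 12, 16, 20 and 24 they were 3.32, 3.36, 3.86 and 3.52. All treated Pirc rats thus lay above all untreated ones, rat 20 farthest. Untreated WT rats 13, 17, 21 and 25 had levels of 3.31, 3.23, 3.21 and 3.26. DSS-treated WT rats 14, 18, 22 and 26 had levels of 3.37, 3.32, 3.44 and 3.41. The WT groups did not overlap either, by a narrow margin. Over both genotypes the DSS difference was 0.30 (SE 0.08, 1.23-fold, adjusted p = 0.0224). In Pirc rats it was 0.47 (SE 0.12, 1.38-fold, adjusted p = 0.0161), a call lost when only the compared groups entered the fit (adjusted p = 0.122). In WT rats it was 0.13 (95% confidence interval from -0.12 to 0.38, adjusted p = 0.677). The DSS effects differed by 0.34 between the genotypes (95% confidence interval from -0.02 to 0.69, adjusted p = 0.495). Among untreated rats every Pirc rat lay below every WT rat, with a difference of -0.20 that did not pass (adjusted p = 0.590).

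Tlr3, the endosomal receptor for double-stranded RNA, was lower in DSS-treated Pirc rats than in DSS-treated WT rats. The DSS-treated Pirc rats 12, 16, 20 and 24 had levels of -1.25, -0.54, -1.35 and -0.65. In DSS-treated WT rats 14, 18, 22 and 26 the levels were -0.23, -0.39, -0.37 and -0.53. The treated groups did not overlap, but rats 16 and 26 were close, and rats 12 and 20 were far below all others. Levels ranged from -0.59 to -0.15 in untreated Pirc rats and from -0.56 to -0.19 in untreated WT rats, and these groups overlapped. The Pirc difference among DSS-treated rats was -0.57 (SE 0.18, adjusted p = 0.0450), and a second probe gave -0.51 (SE 0.16, adjusted p = 0.0402). It passed in 5 of the 16 fits that each left out 1 rat, those without rat 16, 19, 23, 24 or 26, and was -0.46 without rat 12 (adjusted p = 0.133) and -0.43 without rat 20 (adjusted p = 0.149). With only the compared groups in the fit the adjusted p was 0.142, and with each pair of slide and array row as a block it was 0.0657. In the same comparison 5 of the 11 colon epithelial markers were lower (median -0.45) and 2 of the 8 stratified epithelial markers higher (median 3.16). Of all probes, 8.76% were lower and 9.47% higher. The part of these epithelial markers in the Tlr3 difference was not tested. The DSS difference in Pirc rats was -0.57 (SE 0.18, adjusted p = 0.0521), just short of the threshold, while the second probe passed at the same size (-0.57, SE 0.16, adjusted p = 0.0286). The first probe's difference passed under quantile normalization (adjusted p = 0.0330), under normexp (0.0313), with dim probes filtered out (0.0318), with a common floor (0.0462) and with both probes averaged (0.0290), as well as without rat 16 (0.0199) or rat 24 (0.0284). In WT rats the DSS difference was 0.01 (95% confidence interval from -0.38 to 0.41). Within the 2 array rows of the slides the Pirc difference among DSS-treated rats was -1.0 and -0.13.

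Tlr9, the receptor for CpG DNA, was not well above background on any of the 16 arrays, so no difference is given for it. The peptidoglycan sensor Nod1 passed in none of the 7 comparisons. Its levels ranged from 0.90 to 1.18 in untreated WT, from 0.53 to 1.28 in DSS-treated WT, from 0.35 to 1.18 in untreated Pirc and from 0.16 to 0.83 in DSS-treated Pirc rats. The DSS difference over both genotypes was -0.27 (95% confidence interval from -0.59 to 0.05, adjusted p = 0.270), and that of a second probe was -0.12 (adjusted p = 0.727). The Pirc difference over both treatments was -0.19 (95% confidence interval from -0.51 to 0.13, adjusted p = 0.404).

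Around these members stand the genes that carry, restrain or diversify the same signals. Of 65 further genes of the pathway listed for this purpose, 50 had a matched probe. After DSS over both genotypes 14 were higher, 4 lower and 32 did not pass (median log2 difference 0.09, all probes 0.06). The shares of all probes were 10.2% higher and 6.99% lower. In Pirc rats over both treatments 6 were higher, 8 lower and 36 did not pass (median -0.06, all probes -0.06), against 9.26% and 8.27% of all probes. For DSS in Pirc rats the count was 8 higher and 4 lower, against 8.14% and 6.51% of all probes. In WT rats it was 8 higher and 1 lower, against 2.94% and 0.899%. Among DSS-treated rats 7 were higher and 7 lower in Pirc rats, against 9.47% and 8.76%. These smaller comparisons leaned on single rats: for DSS in WT rats 4 were higher and 0 lower without rat 14, 17 or 18, and 5 higher and 0 lower without rat 21 or 25. In Pirc rats 5 were higher and 1 lower without rat 15, and 6 higher and 1 lower without rat 20. Without rat 20 the Pirc count among DSS-treated rats was 3 higher and 6 lower. Neither the untreated Pirc difference nor the difference between the DSS effects gave a gene that passed by limma (0 of 50 in each).

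Among the other Toll-like receptors, 3 of 6 were higher after DSS and 0 lower. For this and each list below, 10.2% of all probes were higher and 6.99% lower after DSS over both genotypes. For Pirc over both treatments, 9.26% were higher and 8.27% lower. The lists are short, and several of their counts are near these shares. Tlr6, a partner of Tlr2 in binding lipopeptides, was 0.36 higher after DSS over both genotypes (SE 0.10, adjusted p = 0.0206) and lower in Pirc rats (log2 difference -0.56, SE 0.10, adjusted p = 0.0028). Its DSS difference was 0.60 in WT rats (adjusted p = 0.0273) and 0.11 in Pirc rats, where the groups overlapped (95% confidence interval from -0.19 to 0.41, adjusted p = 0.691), and the difference between these effects did not pass (-0.49, adjusted p = 0.402). Its levels were -0.55 to -0.06 in DSS-treated WT rats and -1.37 to -0.99 in DSS-treated Pirc rats, with no overlap. The direction of Tlr6 in Pirc rats was thus opposite to that of Tlr2. Tlr10 (adjusted p = 0.00439) and Tlr8 (adjusted p = 0.0466) also passed for DSS, but were well above background on 2 arrays and 1 array, so no size is given for them. The call of Tlr10 was lost under normexp (adjusted p = 0.10). That of Tlr8 was lost in 13 of the 16 fits that left out 1 rat, under quantile normalization (adjusted p = 0.308), under normexp (0.904), with a common floor (0.597), with array row as a block (0.0530) and without moderation (0.0671).

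Among the accessory proteins, 3 of 7 were higher after DSS and 0 lower. Cd36, a scavenger receptor that hands lipids to Tlr2 heterodimers, was 4.05-fold higher (log2 difference 2.02, SE 0.24, adjusted p = 7.1e-05). Its levels were -5.88 to -4.91 in untreated WT, -4.01 to -2.61 in DSS-treated WT, -5.25 to -4.07 in untreated Pirc and -3.33 to -2.14 in DSS-treated Pirc rats, without overlap in either genotype. Lbp, the plasma protein that binds lipopolysaccharide, was 0.72 higher (SE 0.20, adjusted p = 0.0231), and Ly86, the partner of the receptor Cd180, was 0.57 higher (SE 0.12, adjusted p = 0.00346), although under normexp Ly86 did not pass (0.12, adjusted p = 0.0762). In Pirc rats 1 of 7 passed, the chaperone Hsp90b1 (gp96) on which folding of Toll-like receptors depends, which was 0.71 higher (SE 0.13, adjusted p = 0.00386).

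Of the 13 kinases and ubiquitin ligases, 2 were higher and 2 lower after DSS. Map3k8 (Tpl2), the kinase that links these receptors to ERK, was 1.10 higher after DSS (SE 0.22, adjusted p = 0.0029) and 1.34 higher in Pirc rats (SE 0.22, adjusted p = 0.00203). Map3k7 (TAK1) was 0.36 higher after DSS (adjusted p = 0.0222). The ubiquitin ligase Peli1 was lower after DSS (-0.75, SE 0.11, adjusted p = 0.00034) and lower in Pirc rats (-0.58, SE 0.11, adjusted p = 0.00422), without overlap in any comparison of a treated with an untreated group of the same genotype. Tab1, a binding partner of TAK1, was lower after DSS (-0.35, adjusted p = 0.0317), which its second probe did not show (-0.04), and the call was lost in 8 of the 16 fits that left out 1 rat. In Pirc rats 3 of the 13 were higher and 1 lower, including Ikbke (0.47, adjusted p = 0.00805) and Irak1 (0.35, adjusted p = 0.00984), kinases of the interferon and Myd88 branches.

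Of the 4 measured transcription factors, 2 were higher after DSS. Irf5, which acts downstream of Myd88 in macrophages, was 3.93-fold higher (log2 difference 1.97, SE 0.17, adjusted p = 1.1e-05) and 0.84 higher in Pirc rats (SE 0.17, adjusted p = 0.00464). Its levels ran from -5.06 to -4.52 in untreated WT, from -3.63 to -3.00 in DSS-treated WT, from -4.59 to -4.14 in untreated Pirc and from -2.70 to -1.53 in DSS-treated Pirc rats, without overlap in either genotype. Irf7, the regulator of type I interferon genes, was 0.79 higher after DSS (SE 0.16, adjusted p = 0.00394) but lower in Pirc rats (-0.64, SE 0.16, adjusted p = 0.0156). Its DSS difference was 1.20 in WT rats (adjusted p = 0.0114) and 0.37 in Pirc rats (adjusted p = 0.346), and the difference between these effects did not pass (-0.83, adjusted p = 0.390).

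Of the 8 inhibitors of the pathway, 2 were higher and 1 lower after DSS. Il1rl1 (ST2), the receptor for interleukin 33, which also dampens Toll-like receptor signals, was higher in treated rats (adjusted p = 6.6e-05). Its probe was well above background in 4 DSS-treated Pirc, 3 DSS-treated WT, 1 untreated Pirc and 0 untreated WT rats, so the size of the difference has only a lower bound. In WT rats the treated group was at least 7.76-fold higher (adjusted p = 0.0257). This bound is set against the lowest measured signal of each untreated array, or the probe's own value where that was higher. Against the floor common to all arrays, the treated WT group was at least 3.68-fold higher. A second Il1rl1 probe, to another transcript of the gene and well above background on 4 arrays, gave -0.07 (adjusted p = 0.931). Irak3 (IRAK-M), an inhibitory kinase homologue of macrophages, was 3.93-fold higher after DSS (log2 difference 1.97, SE 0.18, adjusted p = 1.4e-05). Over both treatments it was 0.76 higher in Pirc rats (SE 0.18, adjusted p = 0.0102). Its mean level was -6.06 in untreated WT, -5.93 in untreated Pirc, -4.71 in DSS-treated WT and -3.33 in DSS-treated Pirc rats. The genotypes overlapped among untreated rats but not among treated rats. The second Irak3 probe, well above background on 2 arrays, gave 0.93 for DSS (adjusted p = 0.136). With both probes averaged the Pirc difference of Irak3 was 0.39 and did not pass (adjusted p = 0.297). Tollip was lower after DSS (-0.32, adjusted p = 0.0327), whereas its second probe gave 0.14, and the call was lost in 11 of the 16 fits that left out 1 rat. In Pirc rats Sigirr, an inhibitory receptor of the epithelium, was lower (-0.57, SE 0.09, adjusted p = 0.00178), and so was Sarm1 (-1.03, SE 0.25, adjusted p = 0.0118). Sarm1 was dim in DSS-treated Pirc rats, where only 1 array measured it clearly, against 4 arrays in each other group. The size of its difference therefore rests partly on values near background and is uncertain.

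Of the 12 genes of NOD signalling and the related receptors, 2 were higher and 1 lower after DSS. Nlrp3, the sensor of an inflammasome, passed (adjusted p = 0.00497) but was well above background on 1 array, that of a DSS-treated Pirc rat, so no size is given for it, and with a common floor under dim values its difference was 0.31 and did not pass (adjusted p = 0.243). Xiap, a ubiquitin ligase of the Nod2 complex, was 0.54 higher after DSS (adjusted p = 0.00923) and lower in Pirc rats (-0.57, adjusted p = 0.00885), and Birc2 was lower after DSS (-0.29, adjusted p = 0.0180). In Pirc rats 3 of the 12 were lower and 0 higher. Besides Xiap these were Slc15a1, a peptide transporter that carries muramyl peptides into epithelial cells (-1.32, SE 0.41, adjusted p = 0.0377), and Nlrp6, a receptor of the intestinal epithelium (-0.77, SE 0.24, adjusted p = 0.0407). The calls of Slc15a1 and Nlrp6 were each lost in 11 of the 16 fits that left out 1 rat, without moderation (adjusted p = 0.0595 and 0.0589) and with each pair of slide and array row as a block (0.0510 and 0.0600). That of Slc15a1 was also lost with a common floor (adjusted p = 0.0505) and with its probes averaged (-1.14, adjusted p = 0.0611). Slc15a1 levels ranged from -1.80 to 2.12 in DSS-treated Pirc rats. The 4 colon epithelial markers that were lower in Pirc rats moved in the same direction, and their part in these differences was not tested.

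**Figure D4:**
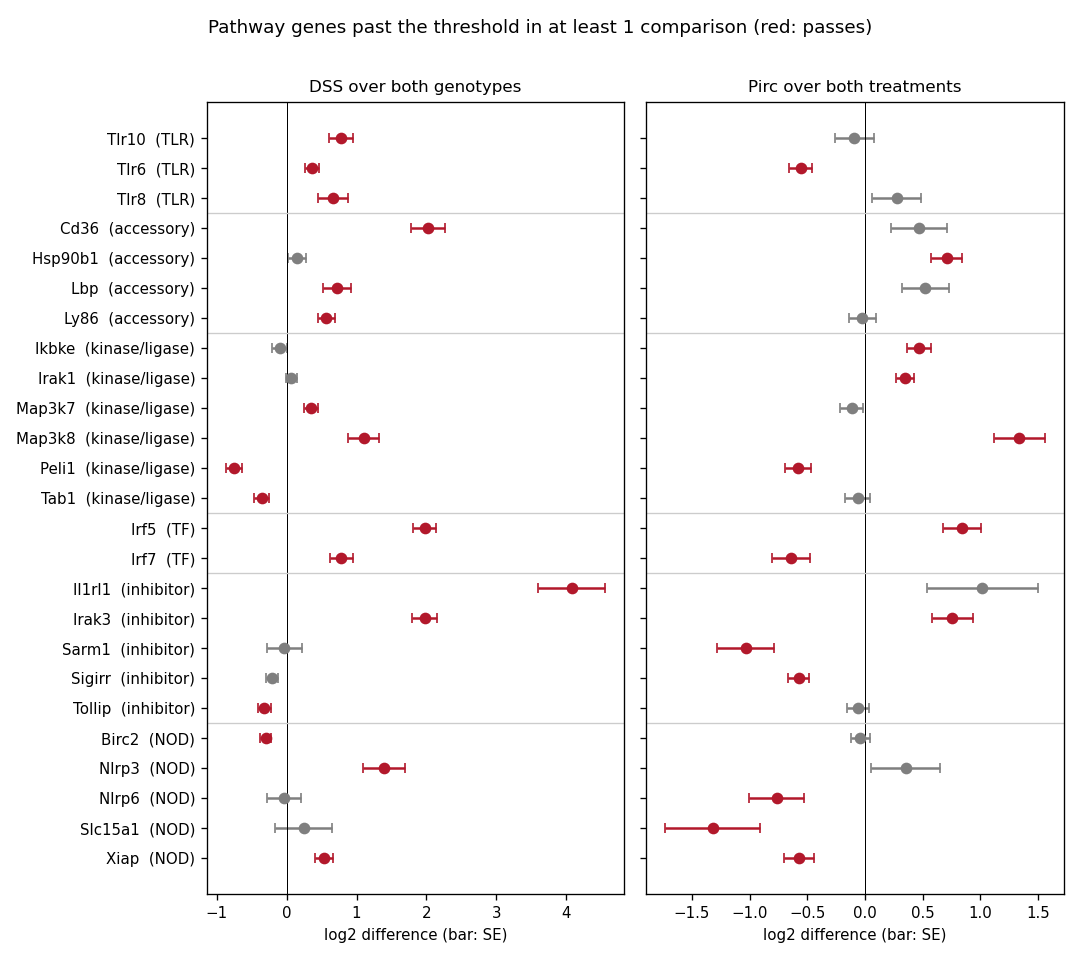
Log2 differences with SE (bars) of the pathway genes that pass in at least 1 of the comparisons, for DSS over both genotypes (left) and Pirc over both treatments (right), grouped by role; red marks an adjusted p of 0.05 or less. Il1rl1, Cd36, Irf5 and Irak3 lie near 2 or above on the left. Il1rl1, Tlr8, Tlr10 and Nlrp3 were not well above background on at least 8 of the 16 arrays. Their distances from 0 are thus not sizes of change. Map3k8, Irf5, Irak3 and Hsp90b1 are among the higher genes on the right, and Slc15a1 and Sarm1 are the lowest there. Only 1 DSS-treated Pirc array measured Sarm1 clearly, so its distance from 0 is uncertain.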

How the data were processed

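RNA of normal distal colon from each rat was labelled and hybridised to 1 single-colour Agilent array. The authors deposited the scanner output extracted with Agilent Feature Extraction 10.7.3.1, and its processed signal, a linear intensity from which background had been subtracted, was used. The deposited values had not been scaled between arrays. The study's methods name Partek software for testing its arrays, and no values made with it are used here. The arrays were designed on another genome build, so array coordinates are not given.

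Of 62976 spots per array, 4259 controls were left out, and the rest belong to 30367 probes. The arrays differed in brightness: the 75th percentile of the signal ran from 875 to 2194. It was lowest for rats 16 (875) and 23 (1063). Between 71.1% and 80.3% of spots were well above background, and 0 were saturated. The lowest log2 level well above background ran from -9.98 (rat 19) to -7.31 (rat 16), so dim genes were not equally measurable on all arrays. Spots of a probe were averaged without outlier-flagged spots. Probes were named through RefSeq transcripts of the GRCr8 gene table (18006 probes matched, 12361 not). Where a gene had several probes, the probe well above background on most arrays, or else with the higher mean, represents it. Cd36, Ly86 and Xiap each had a second probe, well above background on 12, 16 and 16 arrays, whose differences are not given here. The tests used lmFit and eBayes of limma 3.58.1 under R 4.3.3 (1 mean per group, 16 arrays, Benjamini-Hochberg adjustment over all probes). The fit was tested on simulated data with known changes. An at-least fold sets the brighter group against the lowest signal well above background on each array of the dim group, or the probe's own value where higher. Where stated, it is set against the common floor instead, the highest of these lowest signals over all arrays. The number of arrays limits the precision.

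Named besides the members were, per pathway list, at most the 3 largest rises and 3 largest falls that passed for DSS over both genotypes or Pirc over both treatments, and for Tlr2 the 3 most similar genes. The same rule gave Cdkn2aip, Ctsc and Septin7 for Ly96, Rnf187, Atp2a2 and Mfsd5 for Myd88, and Abtb1, Rab19 and Abcc10 for Tlr3. The members and all lists were chosen with earlier results of these data known. The alternatives were quantile normalization, normexp (offset 50, on the median signal since no mean signal is used here) with quantile normalization, a filter on dim probes, a common floor, slide or array row as a block, each pair of slide and array row as a block (added after seeing the data), a fit of the compared groups alone, outlier-flagged spots included, no moderation, a factor of 2, probes of a gene averaged and each rat left out. Running them on the pathway genes was decided after seeing the data.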

Additional observations from a re-analysis of the deposited data

Results flagged for a closer look

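In 2 of the 36 sets of 4 rats that were checked (each of the 9 genes in each of the 4 groups), a rat stood apart from the others of its group by the 95% critical value of Dixon's test, where chance would give 1.8 (about 1 in 20). Untreated WT rat 25 had a Tlr2 level of -1.87, above the other rats of its group. Untreated Pirc rat 23 had a Tlr4 level of 0.73, below the others of its group, and the DSS difference of Tlr4 in Pirc rats passed only in the fit without it among those that left out 1 rat. By the difference over all probes rat 23 lay nearest to rat 25. The cause was not tested.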

How the results depend on the processing

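Of 592 values of single members under alternatives other than leaving out a rat, 575 kept their direction and side of the threshold, 7 no longer passed, 6 passed anew and 4 changed sign. The changes of sign were at differences near 0: Tlr5 for DSS in WT rats was -0.037 under quantile normalization, and under normexp Ly96 for DSS over both genotypes was -0.00112, Tlr3 for DSS in WT rats -0.00883 and Tlr3 for Pirc among untreated rats -0.00807. Tlr9 was left out of these counts.

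The number of members that passed changed as follows. Filtering out dim probes, which tests fewer probes, gave 4 for DSS in Pirc rats (Tlr3 and Tlr4 besides Tlr2 and Myd88). There, quantile normalization, normexp, a common floor and averaged probes gave 3 each, with Tlr3. Slide or array row as a block gave 1 each for Pirc over both treatments. With each pair of slide and array row, which held 1 rat of every group, as a block (chosen after seeing the data), 1 passed for Pirc over both treatments and 1 for Pirc among DSS-treated rats, where Ly96 and Tlr3 were lost, and the counts of the other comparisons were those of the unblocked fit. With only the compared groups in the fit, which holds fewer arrays, 1 passed for DSS in Pirc rats, 0 for DSS in WT rats (by limma) and 1 for Pirc among DSS-treated rats. Requiring a factor of 2 lowered the count to 1 (Tlr2) in 4 comparisons. These were the Pirc difference over both treatments or among treated rats and the DSS difference over both genotypes or in Pirc rats. For DSS in WT rats the count stayed at 1 (Tlr2).

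With 1 rat left out in turn, the counts ranged from 2 to 2 for DSS over both genotypes, 2 to 3 for DSS in Pirc rats, 0 to 1 for DSS in WT rats, 1 to 2 for Pirc over both treatments, 1 to 2 for Pirc among DSS-treated rats and 0 to 0 for the other comparisons. Of 896 single values, 834 kept direction and side, 27 no longer passed, 3 passed anew and 32 changed sign, all of the latter at differences that had not passed. Those that changed sign ranged, for DSS over both genotypes, from -0.082 to 0.077 for Cd14, -0.016 to 0.089 for Ly96 and -0.10 to 0.069 for Tlr5. For Pirc over both treatments they ranged from -0.020 to 0.13 for Cd14 and -0.17 to 0.023 for Tlr5. For DSS in WT rats Tlr3 ranged from -0.042 to 0.084. For Pirc among untreated rats Tlr3 ranged from -0.061 to 0.084 and Tlr5 from -0.055 to 0.28. For Pirc among DSS-treated rats Tlr4 ranged from -0.16 to 0.082, and the difference between the DSS effects of Nod1 from -0.20 to 0.14. The Tlr2 differences that passed ranged from 1.92 to 2.24 for DSS over both genotypes, 2.37 to 2.72 in Pirc rats, 1.33 to 1.96 in WT rats, 1.32 to 1.64 for Pirc over both treatments and 1.59 to 2.23 for Pirc among DSS-treated rats. Without rat 26 Tlr2 and Myd88 passed for DSS over both genotypes, and Tlr2 for Pirc over both treatments.

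The counts that follow for the pathway genes leave out the factor of 2 unless it is named. Of the values of genes that passed, 299 of 317 kept direction and side under the other settings, 18 no longer passed and 0 changed sign. With 1 rat left out, 455 of 512 kept them. Counts for DSS over both genotypes ranged from 11 to 15 higher and 2 to 4 lower under the other settings. For Pirc over both treatments they ranged from 5 to 6 higher and 6 to 9 lower. Requiring a factor of 2 left 6 higher and 0 lower for DSS over both genotypes. For Pirc over both treatments it left 1 higher and 2 lower. Pairing by replicate number could not be used, since each rat number occurs in 1 group only. Probes near background, such as those of Tlr9, Nlrp3, Tlr8 and Tlr10, limit what can be said of low genes.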
